A study of Mus musculus with 8 samples.

Results

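The mitochondrial ribosomal protein genes were taken as all genes whose single symbol in the platform's probe annotation is Mrpl or Mrps followed by a number. The rule found 76 of the 18193 genes on the array. Each gene was represented by the probe set with the highest mean log2 signal over all 8 arrays, a choice that did not use the difference between the groups. Here 49 of the 76 were counted in the large subunit and 27 in the small subunit. Mrps30 and Mrps18a were counted in the large one despite their symbols, as in present structures. Mrps36 is kept under its symbol and counted in the small subunit, although its protein is now known as a component of the 2-oxoglutarate dehydrogenase complex.

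Mitochondria have their own ribosomes, which translate the few messages of the mitochondrial genome, all of them for subunits of the respiratory chain and the ATP synthase. Their RNAs come from mitochondrial DNA, but every protein of the mitoribosome is encoded in the nucleus, made in the cytosol and imported. Many of these proteins have a bacterial counterpart, and others are found in mitochondria only. Skeletal muscle is rich in mitochondria, and oxidative fibres hold more of them than fast glycolytic fibres.

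The samples were total RNA of gastrocnemius, the large calf muscle, from mice of the C57/Bl6J background. There were 4 GR_KO muscles, labelled as knockouts of the glucocorticoid receptor, and 4 WT muscles, labelled wild type. The design text calls the mutants GR(i)skm-/- and their comparators controls. The sources used here do not give the promoter behind the deletion, any inducing agent, or the age and sex of the mice. Each sample was hybridised to 1 Affymetrix array, and the comparison asks which muscle transcripts differ when the receptor, a hormone-activated transcription factor, is disrupted.

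Some motifs were found in a larger share of the promoters of mitochondrial ribosomal protein genes than of all protein-coding genes, each in a minority of them. A RefSeq promoter sequence, from 250 bases before to 50 after the start site, was on hand for 67 of the 76 genes, in 73 windows (GRCm38.p6). The core CCGGAAG, read by ETS factors such as GABP, was found on either strand in 25 of the 73 windows, or 34.2%, against 11.6% of the 21262 windows of all protein-coding genes. The YY1 motif AANATGGC was found in 21 windows, or 28.8%, against 6.37%. The NRF1 motif, GCGC and TGCGC with any base between them, was found in 12 windows, or 16.4%, against 6.38%. At least 1 of the ETS and YY1 motifs stood in 38 windows, or 52.1%, against 16.8% of all coding windows. In no member window did a match of one overlap a match of the other, but such overlaps are rare, standing in 0.0047% of all coding windows. Of the 24 YY1 matches in the members' windows, 16 began at or after the start site, or 66.7%, against 39.1% of those in all coding windows. The median ratio of observed to expected CpG was 0.82 in the members' windows and 0.57 in all coding windows. The ETS and NRF1 letters hold CpG themselves, and the shares were not compared among windows of like CpG content.

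Other motifs were about as rare as in all genes, or rarer. The palindromic glucocorticoid response element, AGAACA and TGTTCT with 3 bases of any kind between them, had 0 matches in the 73 windows, against 2 in the 21262 coding windows, so it is rare in windows of this length. The half-site AAGGTCA, read by oestrogen-related receptors, was in 5.48% of the members' windows and 4.08% of coding windows. The TATA box letters TATAAA were in 6.85% of the members' windows and 12.6% of coding windows. These matches are descriptions of letters and were not tested as binding sites.

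The stretch from 130 bases before to 30 after the start site is shown for 5 members with known roles whose windows hold a match, and for Mrpl50, whose stretch holds none and whose log2 fold change was the lowest of the 76. Capitals mark the ETS, YY1 and NRF1 matches. The stretches are those of Mrps27 (chr13:99344656-99344815, plus strand), Mrps22 (chr9:98601650-98601809, minus strand), Mrpl3 (chr9:105053138-105053297, plus strand), Mrpl12 (chr11:120484507-120484666, plus strand), Mrpl45 (chr11:97315586-97315745, plus strand) and Mrpl50 (chr4:49521054-49521213, minus strand), each written 5′ to 3′ on the gene's strand.
Mrps27: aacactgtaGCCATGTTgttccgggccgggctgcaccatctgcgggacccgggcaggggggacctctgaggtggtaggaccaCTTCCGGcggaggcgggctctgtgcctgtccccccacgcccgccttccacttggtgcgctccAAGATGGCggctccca
Mrps22: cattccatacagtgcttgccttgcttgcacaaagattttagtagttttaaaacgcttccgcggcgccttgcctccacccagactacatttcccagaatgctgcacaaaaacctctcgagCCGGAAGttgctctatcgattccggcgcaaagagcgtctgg
Mrpl3: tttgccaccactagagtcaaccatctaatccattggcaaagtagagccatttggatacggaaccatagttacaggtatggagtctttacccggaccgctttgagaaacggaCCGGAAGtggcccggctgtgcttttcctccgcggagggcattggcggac
Mrpl12: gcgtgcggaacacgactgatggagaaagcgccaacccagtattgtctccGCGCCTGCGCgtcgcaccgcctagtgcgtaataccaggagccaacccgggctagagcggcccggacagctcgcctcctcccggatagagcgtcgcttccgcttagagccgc
Mrpl45: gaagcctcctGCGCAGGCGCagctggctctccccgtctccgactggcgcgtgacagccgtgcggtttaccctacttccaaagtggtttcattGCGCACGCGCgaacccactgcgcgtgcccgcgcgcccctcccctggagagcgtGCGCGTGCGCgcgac
Mrpl50: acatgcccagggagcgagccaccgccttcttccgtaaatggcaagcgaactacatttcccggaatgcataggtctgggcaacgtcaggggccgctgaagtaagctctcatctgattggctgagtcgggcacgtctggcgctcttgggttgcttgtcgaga
Mrps27 holds 1 ETS and 2 YY1 matches, Mrps22 and Mrpl3 hold 1 ETS match each, Mrpl12 holds 1 NRF1 match and Mrpl45 holds 3.

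In GR_KO muscle, transcripts of the mitochondrial ribosomal proteins stood close to their WT levels. All 76 genes were bright enough to be tested, and their fold changes, GR_KO over WT, lay between 0.81 for Mrpl50 and 1.29 for Mrpl20. In limma over all 11062 genes tested, 0 of the 76 passed an adjusted p of 0.05, against 6 of all genes, or 0.0542%. At an unadjusted p under 0.05 there were also 0 of the 76, against 4.63% of all genes, of which 2.37% were higher and 2.26% lower. The smallest unadjusted p was 0.0917 and the smallest adjusted p 0.880. In 0 of the 76 did the GR_KO signals all lie on one side of the WT signals, against 2.58% of all genes. In an exact permutation test of 4 against 4 arrays, two-sided, the smallest p among the 76 was 0.0857, for Mrps18c, where 0.0286 is the smallest the design allows.

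The median log2 fold change of the 76 genes was 0.07, and 57 of them, or 75.0%, were above 0. Over all genes tested the median was 0.01, and 52.2% were above 0. The genes varied little among themselves, with 62 of 76 within 0.2 of 0 on the log2 scale, against 58.4% of all genes, and 36 within 0.1. For 66 of the 76 genes the difference between the groups was smaller than the mean SD within the groups. This count and the 36 within 0.1 have no share over all genes beside them, so neither is read as a trait of the members.

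**Figure D1:**
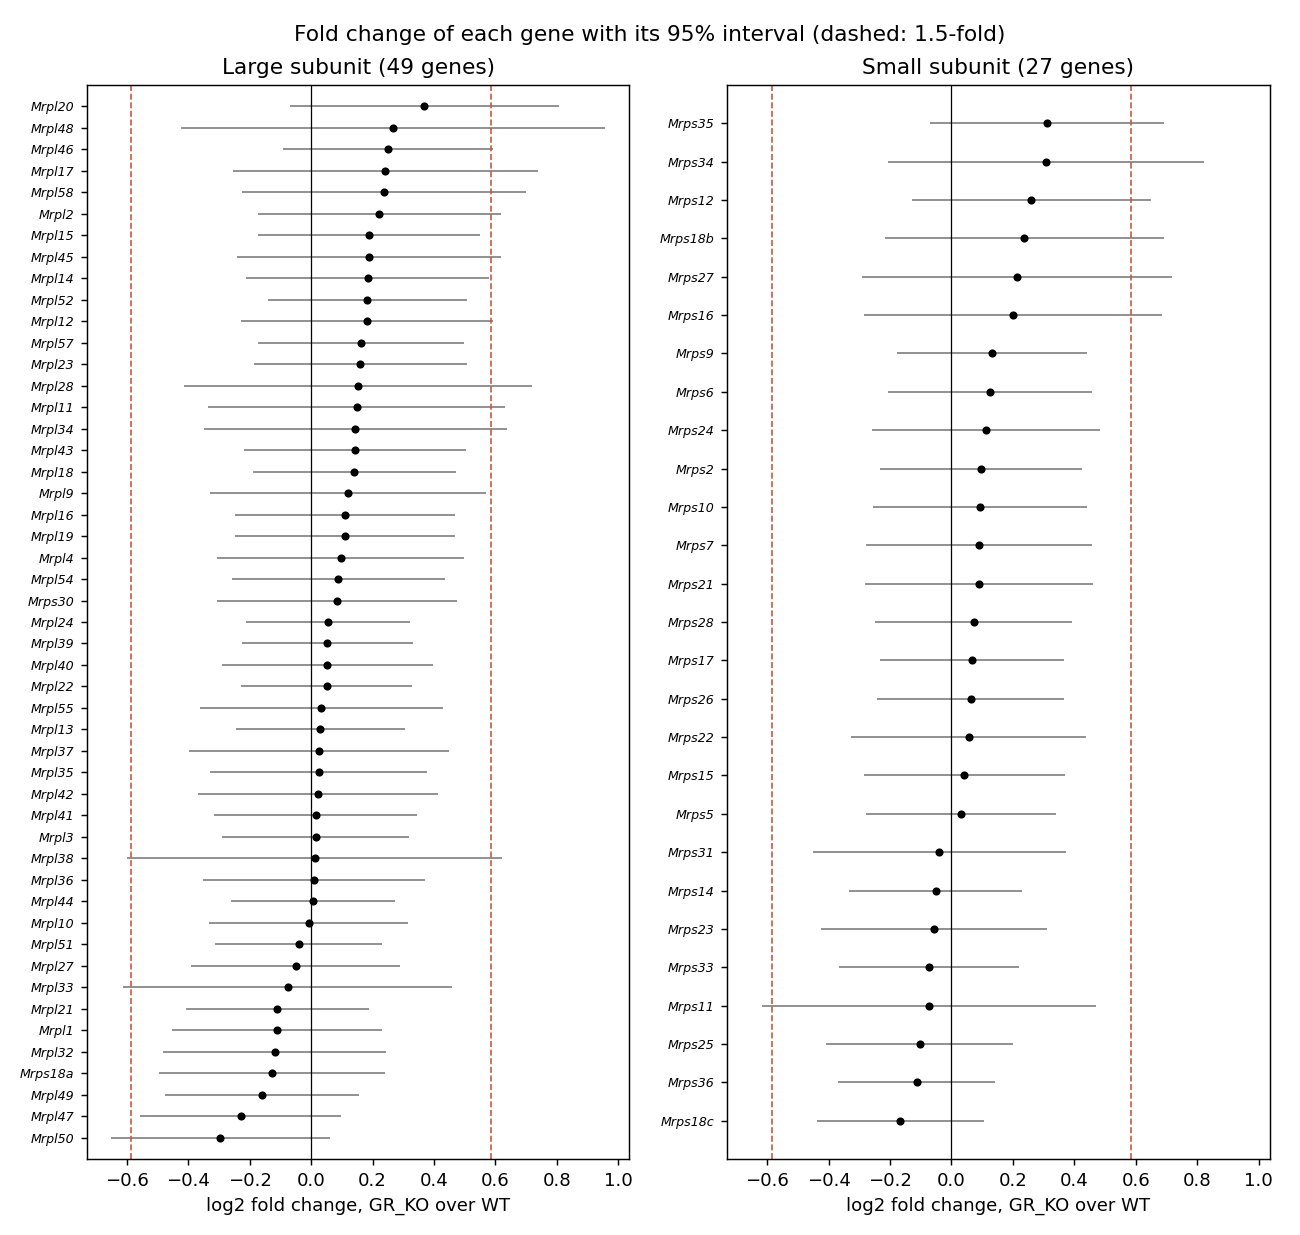
Log2 fold change (GR_KO over WT, x axis) of each of the 76 genes with its 95% interval from limma, for the 49 large subunit and 27 small subunit genes. Dashed lines mark 1.5-fold either way. Every interval includes 0, and 55 of the 76 lie inside the dashed lines.

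The intervals bound how large a difference the arrays leave room for. The 95% interval lay within 1.5-fold either way for 55 of the 76 genes, or 72.4%, against 42.0% of all genes tested. All 76 intervals lay within 2-fold, against 84.9% of all genes. Bright genes have narrower intervals: among the 6386 genes with a mean signal in the range of the members, 57.5% had an interval within 1.5-fold. Of the 21 members outside that bound, 18 passed it on the higher side and 4 on the lower side, Mrpl38 on both. The widest interval was that of Mrpl48, from -0.42 to 0.96 on the log2 scale, and the standard errors of the 76 lay between 0.12 and 0.31.

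Among genes of the small subunit, which binds the message and decodes it, the 2 with the smallest p-values, Mrps35 and Mrps12, had higher mean signals in GR_KO. Mrps35, a small subunit protein without a bacterial counterpart, had signals of 232, 229, 285 and 254 on the GR_KO arrays, against 195, 205, 263 and 154 on the WT arrays. Only WT replicate 3 reached the GR_KO range, and the log2 fold change was 0.31 ± 0.17 (SE of the limma fit, n = 4 per group, adjusted p = 0.880). Mrps12, the counterpart of a bacterial protein at the decoding centre, had 445, 514, 545 and 620 on the GR_KO arrays, against 400, 518, 538 and 337 on the WT arrays. Here 2 WT arrays lay inside the GR_KO range, and the log2 fold change was 0.26 ± 0.18 (adjusted p = 0.880). Mrps34, which is needed for a stable small subunit, had 1024, 1635, 1567 and 1733 in GR_KO, against 1169, 1503, 1441 and 766 in WT. The groups overlapped widely, with a log2 fold change of 0.31 ± 0.23, which was 0.10 without WT replicate 4.

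The genes related to a single bacterial small subunit protein, Mrps18a, Mrps18b and Mrps18c, did not share a direction. Mrps18b, with 450, 739, 776 and 847 in GR_KO muscle against 549, 629, 697 and 470 in WT muscle, had a log2 fold change of 0.24 ± 0.21. Mrps18c had 466, 373, 436 and 395 in GR_KO, against 458, 481, 458 and 470 in WT, a log2 fold change of -0.17 ± 0.12. Its WT signals were within 23 units of each other, and 1 GR_KO array lay among them. Mrps18a, whose protein sits in the large subunit, had a log2 fold change of -0.13 ± 0.17. All 3 intervals included 0.

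For small subunit genes chosen for their roles or their high signal, the difference was smaller than the larger of the within-group SDs. Mrps22, a small subunit protein specific to mitochondria, averaged 228 ± 14.4 in GR_KO and 223 ± 46.7 in WT (SD, n = 4 each), with WT replicate 4 alone at 154. Mrps27, which carries RNA-binding pentatricopeptide repeats, averaged 293 ± 54.9 in GR_KO and 258 ± 78.2 in WT. Mrps16, a counterpart of a bacterial small subunit protein, averaged 1241 ± 205 in GR_KO and 1107 ± 311 in WT. Their log2 fold changes were 0.06 ± 0.17, 0.21 ± 0.23 and 0.20 ± 0.22. Mrps21 and Mrps24 had 0.09 ± 0.17 and 0.11 ± 0.17. Mrps25 and Mrps36 were among the lower genes with the smallest p, at -0.10 ± 0.14 and -0.11 ± 0.12. Mrps36 varied little within the groups (SD of 0.088 in GR_KO and 0.073 in WT on the log2 scale), so its difference was larger than either SD, although its interval included 0 and the groups overlapped. The 10 other members listed with a bacterial counterpart were Mrps2, Mrps5, Mrps6, Mrps7, Mrps9, Mrps10, Mrps11, Mrps14, Mrps15 and Mrps17. They lay between -0.07 and 0.13, and 8 were above 0. The remaining 5 (Mrps23, Mrps26, Mrps28, Mrps31 and Mrps33) lay between -0.07 and 0.07.

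**Figure D2:**
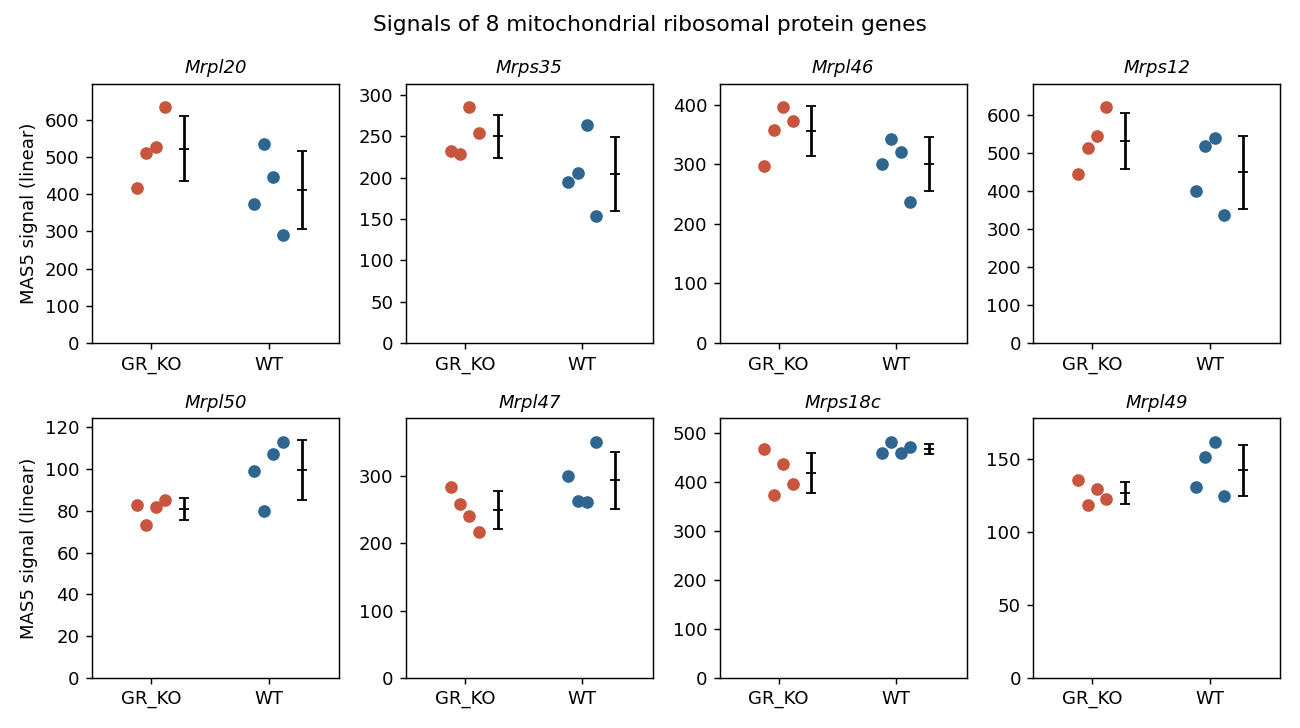
MAS5 signal (y axis, linear, from 0) of 8 genes on the 4 GR_KO (left) and 4 WT (right) arrays, with the mean and SD beside the points. The upper row holds the genes with the smallest p that were higher in GR_KO and the lower row those that were lower, and in each panel the groups overlap.

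The large subunit catalyses peptide bond formation and is anchored at the inner membrane, where its products are inserted. Mrpl20, the counterpart of a bacterial protein that acts early in assembly, had the largest log2 fold change of the 76, 0.37 ± 0.20 (95% interval from -0.07 to 0.81, adjusted p = 0.880 in limma). Its signals were 418, 512, 527 and 634 on the GR_KO arrays, against 374, 535, 446 and 289 on the WT arrays. WT replicates 2 and 3 lay inside the GR_KO range, and the other WT arrays below it. Mrpl46 had 297, 357, 396 and 372 in GR_KO muscle, against 301, 342, 321 and 237 in WT muscle, and a log2 fold change of 0.25 ± 0.16. Mrpl2, whose bacterial counterpart lies near the catalytic centre, averaged 936 ± 118 in GR_KO and 815 ± 191 in WT, and Mrpl52 averaged 1197 ± 210 in GR_KO and 1044 ± 65.6 in WT. Their log2 fold changes were 0.22 ± 0.18 and 0.18 ± 0.15.

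The large subunit genes on the lower side were fewer. Mrpl50 had 83, 73, 82 and 85 on the GR_KO arrays, against 99, 80, 107 and 113 on the WT arrays. WT replicate 2 alone lay in the GR_KO range, and the log2 fold change was -0.30 ± 0.16 (adjusted p = 0.880). Mrpl47 had 284, 259, 240 and 217 in GR_KO, against 300, 263, 261 and 351 in WT. Its groups overlapped at 1 GR_KO array, and the log2 fold change was -0.23 ± 0.15 (adjusted p = 0.880). Mrpl49 and Mrpl21 had log2 fold changes of -0.16 ± 0.14 and -0.11 ± 0.14.

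Large subunit genes named for their roles showed no difference beyond the spread. Mrpl12, the counterpart of the bacterial stalk protein that recruits translation factors, averaged 1309 ± 252 in GR_KO and 1150 ± 211 in WT. Mrpl11, at the base of that stalk, averaged 726 ± 204 in GR_KO and 646 ± 145 in WT. Mrpl45, which ties the ribosome to the inner membrane, averaged 610 ± 122 in GR_KO and 535 ± 104 in WT. Their log2 fold changes were 0.18 ± 0.19, 0.15 ± 0.22 and 0.19 ± 0.20. Mrpl3, whose bacterial counterpart reaches toward the catalytic centre, averaged 296 ± 38.9 in GR_KO and 292 ± 22.0 in WT, and Mrpl44, which has a ribonuclease III-like fold, averaged 410 ± 16.3 in GR_KO and 409 ± 35.6 in WT. Both had a log2 fold change of 0.01, with 95% intervals from -0.29 to 0.32 and from -0.26 to 0.27.

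The large subunit probe sets with the highest signals were those of Mrpl51, Mrpl42 and Mrpl23, with log2 fold changes of -0.04 ± 0.12, 0.02 ± 0.18 and 0.16 ± 0.16. Signals of different probe sets also depend on the probes, so they are not compared between genes. The 20 other members listed with a bacterial counterpart were Mrpl1, Mrpl4, Mrpl9, Mrpl10, Mrpl13 to Mrpl19, Mrpl22, Mrpl24, Mrpl27, Mrpl28 and Mrpl32 to Mrpl36. They lay between -0.12 and 0.24 on the log2 scale, and 15 were above 0. The remaining 12 (Mrpl37 to Mrpl41, Mrpl43, Mrpl48, Mrpl54, Mrpl55, Mrpl57, Mrpl58 and Mrps30) lay between 0.01 and 0.27. All 12 were above 0 because the 5 genes of this class below 0 were among the named ones. Of all 22 genes in the class, 17 were above 0. The smallest unadjusted p among these 32 in limma was 0.277, a floor set by naming the genes with the smallest p. The ranges of the remaining small subunit genes above leave out the named genes in the same way.

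The 2 subunits gave like values. The median log2 fold change was 0.06 over the 49 large subunit genes, of which 38 were above 0, and 0.07 over the 27 small subunit genes, of which 19 were above 0. By the ancestry classes used here, the medians were 0.11 for 27 large subunit genes listed with a bacterial counterpart and 0.04 for the other 22. They were 0.09 for 15 small subunit genes listed with a bacterial counterpart and 0.06 for the other 12. Mrpl55 and Mrps28 were classed with the others, although present nomenclature gives each a bacterial counterpart. In each class 0 genes passed in limma, at the adjusted or the unadjusted threshold. The medians of genes with and without an ETS match were 0.09 (25 genes) and 0.05 (42 genes), and those with and without a YY1 match were 0.02 (21 genes) and 0.08 (46 genes).

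The arrays within a group differed from each other more than the groups did. To show this, each gene's log2 signal was centred on its mean over the 8 arrays, and the median of the 76 genes was taken per array. It was -0.19, 0.04, 0.12 and 0.20 on GR_KO replicates 1 to 4, and -0.05, 0.09, 0.10 and -0.29 on WT replicates 1 to 4. The GR_KO arrays averaged 0.04 ± 0.17 and the WT arrays -0.04 ± 0.19 (SD over 4 arrays), so the distance between the groups was under the SD of either. The lowest array of each group, GR_KO replicate 1 and WT replicate 4, held the lowest signal of 55 of the 76 genes, 13 on GR_KO replicate 1 and 42 on WT replicate 4. Over all genes tested these shares were 10.8% and 27.4%. GR_KO replicate 4 held the highest signal of 29 genes, or 38.2%, against 14.7% of all genes.

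**Figure D3:**
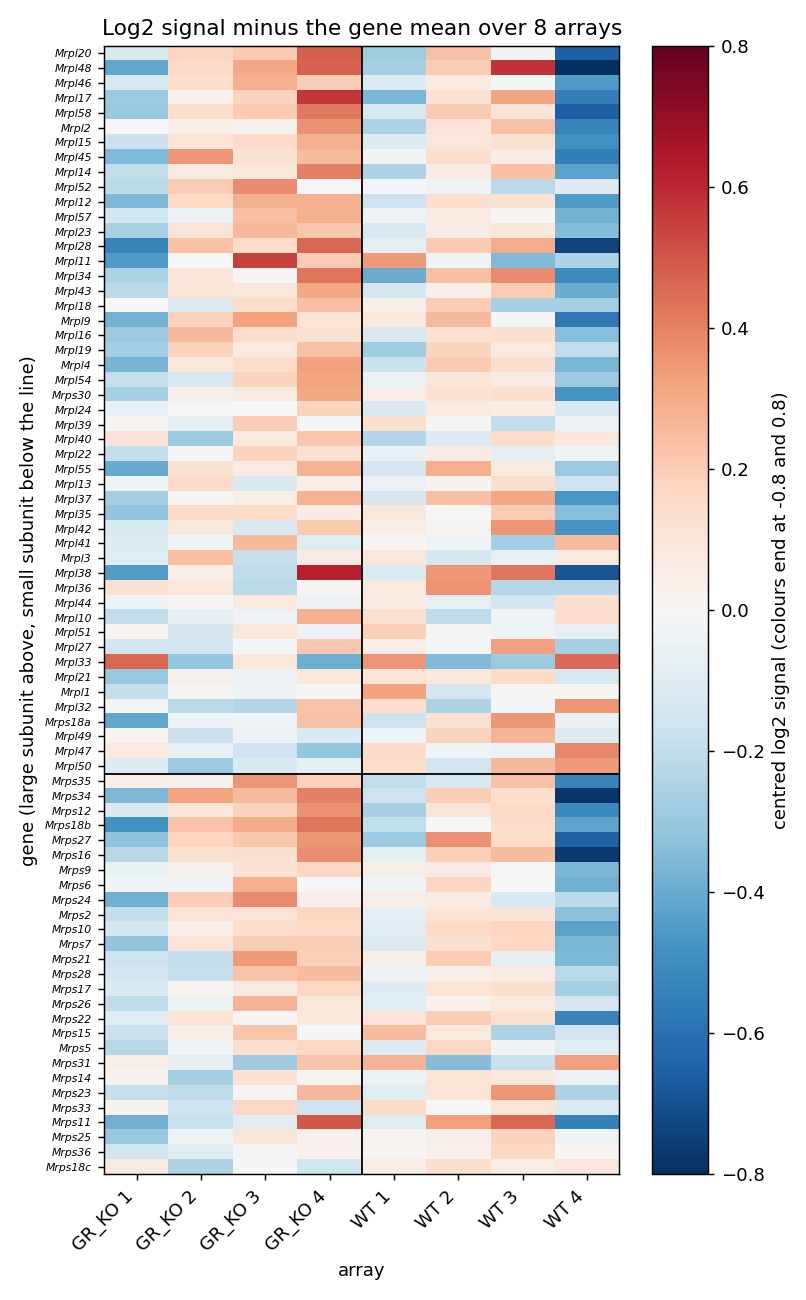
Log2 signal of the 76 genes (rows) on the 8 arrays (columns, GR_KO left of the line), each gene centred on its mean over the arrays. WT replicate 4 and GR_KO replicate 1 are mostly blue, below the gene mean, and GR_KO replicate 4 is mostly red, above it.

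The small shift of the members depended on single arrays. Without WT replicate 4 the median log2 fold change of the 76 genes was 0.005, with 40 of 76 above 0. The median over all genes tested was 0.02 in that fit, above that of the members. Without GR_KO replicate 4 the median of the 76 genes was 0.03, against 0.02 over all genes. Without WT replicate 2 it was 0.13 and without WT replicate 3 it was 0.11. Without GR_KO replicate 1 the median was 0.16. In that fit 2 of 76 genes had an unadjusted p under 0.05 in limma, both higher in GR_KO, against 10.8% of all genes. The groups did not overlap for 8 of 76 genes, against 12.4% of all genes. Single genes moved likewise: without WT replicate 4 the log2 fold changes of 22 of the 29 named members moved by over 1.5 times or changed sign, and without GR_KO replicate 1 those of 18 did. Without WT replicate 4 Mrpl20 had 0.21, Mrps35 0.18, Mrpl46 0.14, Mrps12 0.13 and Mrpl2 0.08. Mrps27 had 0.03, Mrpl45 0.04, Mrps16 -0.02 and Mrps22 -0.11. In each of these fits 0 of the 76 passed the adjusted threshold.

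WT replicate 4 also stood apart in other measures. Its median signal over hybridisation and labelling controls was 3.64 times the mean of the other WT arrays. Its markers of fast glycolytic fibres had a centred median of 0.86, against -0.44 to 0.27 on the GR_KO arrays and -0.35 to -0.16 on the other WT arrays, and the summed signal of the list was 207245 on it, against 83031 to 134176 on GR_KO arrays and 89587 to 101852 on the other WT arrays. Its markers of slow fibres, which are rich in mitochondria, had a centred median of -1.22 and a summed signal of 7233, against 14895 to 17977 on GR_KO arrays and 12262 to 24414 on the other WT arrays. The ratio of the 3′ to the 5′ Gapdh probe sets was 1.20 on it, against 0.80 to 0.91 on the GR_KO arrays and 0.80 to 0.87 on the other WT arrays. The same ratio for actin did not set it apart. That ratio was 1.73 on WT replicate 4, 1.07 to 1.84 on the GR_KO arrays and 0.99 to 1.59 on the other WT arrays. GR_KO replicate 1, the lowest GR_KO array for the members, went the other way, at -0.44 for fast glycolytic and 0.28 for slow fibre markers. Macrophage and leukocyte markers had centred medians of 0.54 on GR_KO replicate 1 and 0.47 on WT replicate 4. On the other arrays these lay between -0.53 and 0.27. The part of these values in the mitochondrial ribosomal protein signals was not tested. In whole muscle, fewer cells or fibres of a type and less RNA per cell cannot be told apart.

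Subunits of respiratory complex I and the cytosolic ribosomal proteins were set beside the mitochondrial ones as the nearest families, one for the organelle and one for the machine. Their median log2 fold changes were 0.07 (34 genes tested, 22 above 0) and 0.06 (51 genes tested, 38 above 0), close to the 0.07 of the mitochondrial ribosomal proteins, and 0 genes of either passed the adjusted threshold in limma. These medians, too, depended on single arrays. With 1 array left out the complex I median lay between -0.01 (without GR_KO replicate 3) and 0.16 (without GR_KO replicate 1), and was 0.006 without WT replicate 3. The cytosolic median lay between 0.02 (without GR_KO replicate 3) and 0.14 (without WT replicate 4), and without WT replicate 4 the median of the mitochondrial ribosomal proteins was 0.005. With array weights the medians were 0.13 for complex I, 0.16 for cytosolic and 0.07 for mitochondrial ribosomal proteins. At an unadjusted p under 0.05 in limma complex I had 1 of 34 genes, which was lower. The cytosolic ribosomal proteins had 2 of 51, both higher, against 4.63% of all genes tested. The arrays did not line up the same way. On WT replicate 4 the centred median was -0.29 for mitochondrial ribosomal proteins, 0.04 for complex I and 0.21 for cytosolic ribosomal proteins. On GR_KO replicate 1 all were below 0, at -0.19, -0.26 and -0.12. These differences between families are descriptions of single arrays and were not tested.

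**Figure D4:**
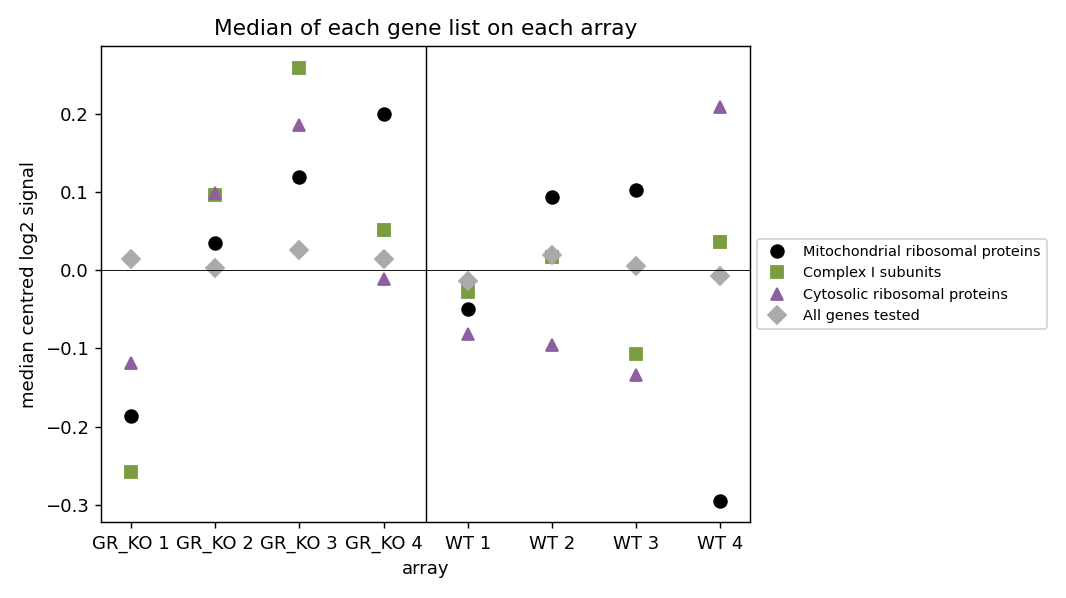
Median centred log2 signal (y axis) of each gene list on each array (x axis, GR_KO left of the line). The mitochondrial ribosomal proteins (black) span -0.29 on WT replicate 4 to 0.20 on GR_KO replicate 4, while the median of all genes tested (grey) stays near 0.

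Among other probe sets of the same genes none passed the test, although single ones had larger fold changes. The 76 genes had 156 single-gene probe sets, of which 132 were above the signal filter, and 34 genes had more than 1 above it. In limma over the 19223 single-gene probe sets above the filter, 0 of the 132 passed an adjusted p of 0.05, against 0.0260% of all, and 1 had an unadjusted p under 0.05, against 4.17% of all. That one was a dim probe set of Mrpl50, 1451266_at, with signals of 41, 24, 39 and 27 in GR_KO, against 55, 34, 49 and 69 in WT. Its log2 fold change of -0.65 ± 0.28 (adjusted p = 0.923 in limma) had the direction of the brighter Mrpl50 probe set.

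Probe sets of a gene often differed in sign. In 18 of the 34 genes all probe sets above the filter had the same sign, and in 16 they did not. The 56 probe sets other than the brightest had a median log2 fold change of -0.003 and lay between -0.65 and 0.36. The widest gap was that of Mrps2, with 0.10 at its brightest probe set and -0.55 at 1420845_at, where the signals were 29, 35, 28 and 49 in GR_KO, against 45, 46, 71 and 43 in WT. A second Mrpl47 probe set, 1443915_at, had a log2 fold change of -0.63 ± 0.33, with signals between 12 and 44 on all arrays. MAS5 signals this low are noisy.

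**Figure D5:**
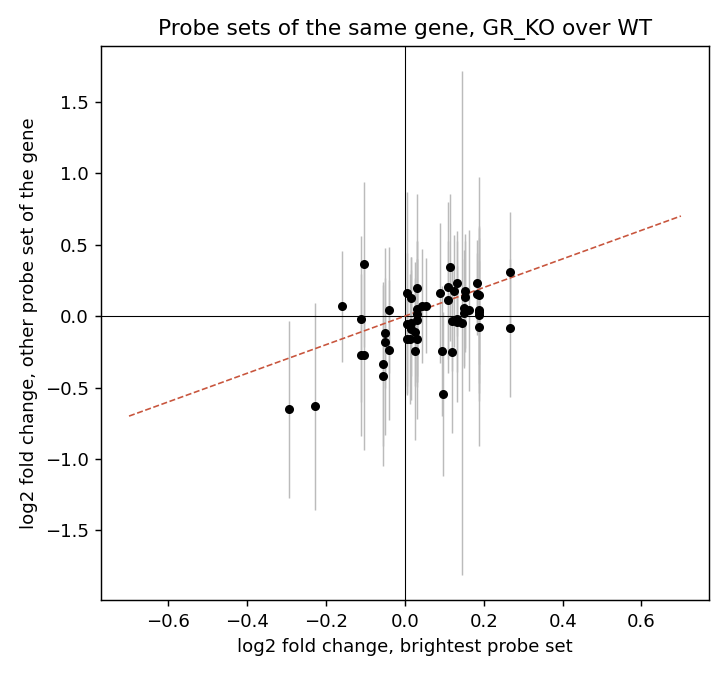
Log2 fold change (GR_KO over WT) of the brightest probe set of a gene (x axis) and of its other probe sets above the signal filter (y axis), with 95% intervals drawn for the y values. Points would lie on the dashed line if the probe sets gave the same value, and most lie near 0 on both axes.

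No gene of the rest of the mitochondrial translation pathway passed the test. The genes tested were 4 mitoribosome proteins under other symbols, 10 mitochondrial translation factors, and 21 assembly factors and ribosomal RNA modifiers. To these came 20 genes of tRNA charging (synthetases, and the amidotransferase genes Gatb, Gatc and Qrsl1). The last list held 12 genes of mitochondrial DNA upkeep, transcription and RNA stability. Of all these genes 0 passed the adjusted threshold in limma in either direction. At an unadjusted p under 0.05 there were 2 of the 67 genes tested, or 2.99%, against 4.63% of all genes, and the groups did not overlap for 1 of them. Log2 fold changes lay between -0.56 and 0.44, a wider range than that of the mitochondrial ribosomal proteins, and no test compared them. The list medians, in the order given, were 0.08, 0.04, 0.02, 0.03 and 0.06. The lists were chosen with earlier results of these data known.

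The gene of this pathway with the smallest p was Lrpprc, whose protein binds and stabilises mitochondrial messenger RNAs. It had signals of 249, 201, 224 and 343 on the GR_KO arrays, against 322, 342, 446 and 374 on the WT arrays, and a log2 fold change of -0.56 ± 0.18 (unadjusted p = 0.0103, adjusted p = 0.876). Only GR_KO replicate 4 reached the WT range. Cars2, the mitochondrial cysteinyl-tRNA synthetase, had 136, 147, 158 and 210 in GR_KO, against 110, 129, 124 and 111 in WT. Its groups did not overlap, and its log2 fold change was 0.44 ± 0.17 (adjusted p = 0.880).

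The other named genes of the pathway lay closer to 0. Iars2, the isoleucyl-tRNA synthetase, had a log2 fold change of -0.40 ± 0.20, and Mtrf1l, a release factor, -0.37 ± 0.20. Mrrf, the ribosome recycling factor, had 0.24 ± 0.13, and Tfam, which packages mitochondrial DNA and starts its transcription, 0.24 ± 0.15. The assembly genes Ngrn and Mpv17l2 had -0.29 ± 0.15 and -0.28 ± 0.16. Ptcd3 and Chchd1, small subunit proteins with other symbols, had -0.29 ± 0.16 and 0.14 ± 0.14. The adjusted p of each was 0.880 or higher.

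The knockout and the tissue were checked on the same arrays. Nr3c1, which encodes the receptor, had 134, 79, 76 and 94 at probe set 1460303_at in GR_KO muscle, against 377, 307, 307 and 352 in WT muscle (log2 fold change -1.84 ± 0.19, adjusted p = 0.0164 over the 19223 probe sets). Probe set 1457635_s_at had -1.96 ± 0.25 (adjusted p = 0.0234), and the other 4 probe sets had -0.32 to -1.34 with overlapping groups. The 12 skeletal muscle fibre markers were all detected, with summed signals of 114354 to 179351 on GR_KO arrays and 124939 to 282057 on WT arrays. All 12 had log2 fold changes below 0, with a median of -0.11, and 0 had an unadjusted p under 0.05 in limma. Of the 10 endothelial markers tested 9 were above 0, with a median log2 fold change of 0.37. At an unadjusted p under 0.05 in limma there were 4 of the 10, all higher, against 2.37% of all genes in that direction. Summed signals of the endothelial markers were 5011 to 6964 on GR_KO arrays against 3877 to 4773 on WT arrays. Of the 9 fibroblast and matrix markers 6 were above 0, and 2 had an unadjusted p under 0.05 in limma, both higher. The median of this list was 0.49, with summed signals of 12254 to 17496 on GR_KO arrays against 6955 to 13743 on WT arrays. Macrophage and leukocyte, adipocyte, erythrocyte, smooth muscle and Schwann cell markers had medians of -0.09, -0.11, 0.30, 0.01 and 0.50, and slow and fast glycolytic fibre markers 0.33 and -0.10. No tested marker was at 0 on any array and none passed the adjusted threshold, and the part of these cells in the signals of the mitochondrial ribosomal proteins was not tested.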

How the data were processed

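RNA (6 ug of total RNA per sample, per the labels) was labelled with biotin, and each sample had 1 Affymetrix array. The authors deposited signal intensities that are linear and, per the submitters' processing notes, come from MAS5, with no version or scaling target named. The values were whole numbers. Trimmed by 2% at either end, every array had a mean of 99.96, which shows a common scaling. MAS5 subtracts mismatch signals, which makes low values noisy. Precision is limited by how many arrays there are.

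After 64 control probe sets were dropped from 45101, the platform annotation gave 1 symbol for 34945, several for 932 (of which 4 named a mitochondrial ribosomal protein gene and were not used) and none for 9160. RefSeq gene identifiers updated the symbols of 34741, and 204 stayed as annotated. A signal of 0 was replaced with the array's smallest positive signal. No pseudocount or further normalization was applied before log2. The 11062 genes whose mean log2 signal exceeded that of the median probe set (19.4 as a signal) were tested, and 7131 were not.

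The test was limma 3.58.1 in R 4.3.3 on the group alone, with a trended prior, two-sided, and Benjamini-Hochberg adjusted p-values at 0.05. Fold changes are differences of mean log2 signals, and intervals are not adjusted for the number of genes. Separate animals within a group are not stated, so p describes the spread of these samples, which could be technical. No 2 arrays were identical. Figures were drawn in Python 3.11.15. In simulated data for this comparison (11062 genes, 20 runs), 14.7% of the genes changed by 0.58 (log2) were recovered. The share was 54.9% at 1.00, 81.1% at 1.50 and 91.2% at 2.00, with 4.80% of calls false. All sizes were planted together in each run, and the large ones ease the adjusted threshold. Recovery of the smaller ones may thus be overstated for these data, where few genes passed.

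The members, lists and alternatives were chosen with earlier results of these data known. Named genes were the 8 of each direction with the smallest p, the 5 with the highest signal, some for their role, and up to 2 of each pathway list; Mrps2, Mrpl38 and Mrpl48 were singled out after their values were seen. Promoters are from RefSeq (GRCm38.p6), and the array files name no build. Alternatives were quantile normalization, median centring, pseudocounts of 16 and 6, no filter and one at the 70th percentile, averaging of a gene's probe sets, limma without the trend, with a robust prior, with array weights or with a replicate block, and each array left out. The control-probe covariate and the use of all probe sets of the members were added after the data were seen.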

Additional observations from a re-analysis of the deposited data

Results flagged for a closer look

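In 62 groups of 4 values examined with Dixon's test, 4 had a sample far from the other 3, where chance flags about 1 in 20 groups. Mrpl2 in GR_KO muscle had GR_KO replicate 4 at a signal of 1112 and the others between 865 and 886 (ratio of gap to range 0.905). Mrps36 in WT muscle had WT replicate 3 at 864 and the others between 777 and 789 (ratio 0.856). Mrps22 in WT muscle had WT replicate 4 at 154 and the others between 240 and 256 (ratio 0.873). The median signal of the hybridisation and labelling controls in WT was 4191.5 on WT replicate 4 and between 1008.5 and 1262.5 on the others (ratio 0.920).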

How the results depend on the processing

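Under every alternative run, 0 of the mitochondrial ribosomal protein genes passed an adjusted p of 0.05 in limma. At an unadjusted p under 0.05 there were at most 2 of 76, while the share over all genes lay between 2.41% and 10.8%. Their median log2 fold change stayed above 0, between 0.05 and 0.10 with all arrays (0.05 over all 132 probe sets) and between 0.005 (without WT replicate 4) and 0.16 (without GR_KO replicate 1) with 1 array left out. The median over all genes moved too. With quantile normalization it was 0.03, against 0.06 for the members, and with median centring 0.04, against 0.10. Without WT replicate 4 it was 0.02, above that of the members. The count of genes with groups that did not overlap was 0 and became 1 with quantile normalization, median centring or the mean of a gene's probe sets, and 0 to 8 with 1 array left out, where the share over all genes also was higher. Of the 29 named members 19 had the same sign in every alternative and 10 did not. Averaging a gene's probe sets, dim ones included, turned Mrpl52 (-0.13), Mrpl21 (0.11), Mrpl42 (-0.15) and Mrpl44 (-0.01). Mrpl42, Mrpl44 and Mrps22 also turned in other alternatives with all arrays, and Mrpl3, Mrpl11, Mrpl42, Mrpl44, Mrpl51, Mrps16, Mrps21 and Mrps22 with 1 array left out. The 6 genes called over all genes became 0 with no filter, 1 with the mean of a gene's probe sets, 2 without the trend, 10 with array weights, 3 with the control-probe covariate, and 0 to 5 with 1 array left out; the cause was not tested. With the replicate block the count over all genes was 1, the members called were 0 and their median was 0.07. The replicate numbers did not pair the samples: deviations from the group means correlated at -0.19, 0.18, 0.11 and -0.39 for numbers 1 to 4, and 1 of 4 GR_KO arrays correlated best with its own number. GR_KO replicate 1 and WT replicate 4 correlated at 0.58. With 4 arrays a group, differences of about 1.5-fold or less in single genes were mostly not detectable. In the simulated data somewhat larger differences were also often missed, so 1.5-fold is not the limit of detection.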
